A study of Homo sapiens with 13 samples.

Results

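The genes described here are 10 factors and known targets of NF-kappaB: the subunit genes NFKB1, NFKB2 and RELB, the inhibitor genes NFKBIA and TNFAIP3, and the target genes BIRC3, ICAM1, CXCL1, CXCL2 and CCL20. They were chosen by gene symbol, and all 10 were found among the 23886 symbols listed in each of 2 comparison tables. Both tables come from RNA sequencing of DLD-1, an established human colon tumour cell line of epithelial origin, so the results concern a single line in culture. Cells were transfected with small interfering RNA (siRNA) at 50 nM and harvested at 72 h. The first table sets 4 samples with an siRNA against SOX9 (siSOX9) against 3 with a control siRNA (siCtrl). Of these, 3 siSOX9 and 2 siCtrl samples belong to experiment 1, and 1 of each to experiment 2. The second table, from experiment 3, sets 4 samples with siRNA against Y14 (siY14) against 2 siCtrl samples. It joins 2 siRNAs, numbered 9 and 10, in 1 treated arm of 2 samples each. SOX9 is a transcription factor of intestinal crypts, and Y14 belongs to the core of the exon junction complex that marks spliced mRNA. The arms of the first and second table share no control sample.

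NF-kappaB is a family of dimeric transcription factors that IkappaB proteins hold in the cytoplasm. Receptors for tumour necrosis factor, interleukin-1 and microbial products activate the IkappaB kinase (IKK) complex, IkappaB is degraded, and the dimers enter the nucleus and bind kappaB sites in DNA. Among the genes they induce are their own inhibitors, such as NFKBIA and TNFAIP3, so the pathway contains negative feedback. In intestinal epithelium it is known for the induction of chemokines that attract neutrophils and of proteins that protect cells from death.

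The kappaB site itself can be read in the promoters of most of these genes, and the stretches below are shown because they carry the letters that give the set its name. The RefSeq promoter table (build GRCh38.p14, from 250 bases before to 50 bases after each transcription start) held windows for 9 of the 10 members, all but RELB. The 10-base kappaB consensus, searched on both strands, occurred in 2075 of 35116 windows, or 5.91%. At least 1 window of 8 members held it, and ICAM1 was the member with a window but no match. This count is by gene, over 12 windows of 9 members, while the share is by window. The members were also chosen as known factors and targets, so count and share are not compared. A 9-base core, GGAAATTCC, also searched on both strands, was rarer, in 162 windows (0.461%). It was found in 5 members, namely NFKB1, NFKBIA, ICAM1, CXCL1 and CXCL2, and in all of these but ICAM1 it lies inside a consensus match. Capitals mark the matched bases in each stretch, all of which end before the transcription start. ICAM1, with BIRC3, is shown because the siY14 results turn on both, CXCL1 and CXCL2 because they are close paralogs, and NFKB1 and NFKBIA because they are the genes of a subunit and of its inhibitor. The stretches are ICAM1 at chr19:10270914-10270962 (plus strand), BIRC3 at chr11:102317265-102317378 (plus strand), CXCL1 at chr4:73869294-73869344 (plus strand), CXCL2 at chr4:74099243-74099293 (minus strand), NFKB1 at chr4:102501290-102501339 (plus strand) and NFKBIA at chr14:35404801-35404850 (minus strand).
ICAM1: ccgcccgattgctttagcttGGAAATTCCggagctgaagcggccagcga
BIRC3: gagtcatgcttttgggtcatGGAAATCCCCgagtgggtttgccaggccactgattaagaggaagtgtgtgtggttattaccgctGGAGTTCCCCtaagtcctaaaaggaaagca
CXCL1: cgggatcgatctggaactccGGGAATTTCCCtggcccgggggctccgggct
CXCL2: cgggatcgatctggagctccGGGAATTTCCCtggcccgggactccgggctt
NFKB1: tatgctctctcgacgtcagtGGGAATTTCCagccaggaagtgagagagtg
NFKBIA: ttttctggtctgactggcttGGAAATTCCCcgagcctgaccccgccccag
BIRC3 held 2 separate matches, while the marked run of CXCL1 and CXCL2 holds 2 overlapping ones. These matches describe letters in a window, and binding was not measured here.

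Values are normalised read counts, that is reads divided by a size factor for each library. The authors' deposited tables give them as arm means, and reads per library were recovered from those means for all 9 members above a mean of 10 with siY14 and for 8 of these with siSOX9. No sample names belong to these libraries, which are lettered by depth, from a for the deepest of an arm. Depth was 24.85 to 184.1 M counts in the siSOX9 comparison, where library a of each arm was more than 4 times deeper than any other. It was 47.19 to 71.63 M for siY14. In the siSOX9 comparison, deviations of library a from the arm mean ran against those of the other libraries. Their correlations across 7741 genes were -0.784 and -0.712 in siCtrl and -0.703 to -0.503 in siSOX9, against -0.103 to 0.132 among the others. Because each arm mean includes the library itself, such correlations lean negative by construction. How far these go beyond that was not tested. The 4 siY14 libraries fell into pairs, a with c and b with d, whose deviations from the arm mean had correlations of 0.897 and 0.895 across 6859 genes. Which siRNA or experiment a library belongs to cannot be told from the tables, so pairs and siRNAs cannot be matched, and deviations shared within pairs mean that p-values over 4 libraries can be too small. SOX9 fell from 24468 to 9067 normalised counts with siSOX9 (adjusted p 1.4e-04 in the authors' deposited table), whereas RBM8A, the gene of Y14, was listed at 0 throughout and does not check the second knockdown. All 7 epithelial markers looked at were detected in every arm. In the authors' deposited tables KRT20 rose and VIL1 fell with siSOX9, and CDH1, KRT20 and VIL1 fell with siY14. The summed arm means of all 7 were 324801 with siCtrl and 284115 with siSOX9, and 407731 and 298926 in the siY14 table. The summed means of 7 leukocyte markers were 175.7 and 159.0, and 127.5 and 133.0. The T cell gene CD3E and the pan-leukocyte gene PTPRC were below 1 in every arm. CD14 (99.94 and 72.80, and 49.85 and 52.90) and CD68 (70.25 and 82.49, and 76.60 and 76.98) were not, and made up most of these sums. For 6 fibroblast and endothelial markers the summed means were 137.1 and 139.2, and 118.4 and 61.93. With siSOX9, COL1A1 rose from 34.11 to 82.64 and PDGFRB fell from 102.7 to 55.81 (authors' deposited table). The part of these marker levels in the results was not tested.

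Set per kilobase of merged exon (GENCODE v29 lengths), NFKBIA had the highest level of the 10 genes in control cells. It stood at 1145 ± 222 (SD, n = 3) normalised counts per kb in the siCtrl arm of experiments 1 and 2. NFKB1 followed at 506 ± 33.2 (SD, n = 3), NFKB2 at 408 ± 42.9 (SD, n = 3) and ICAM1 at 317 ± 41.1 (SD, n = 3) counts per kb. CXCL2 at 101 ± 20.5 and RELB at 86.8 ± 10.5 counts per kb (SD, n = 3 each) differed by less than the SD of CXCL2. The last 3 above CCL20 lay within each other's spread, CXCL1 at 60.03 ± 22.2, TNFAIP3 at 58.1 ± 4.27 and BIRC3 at 57.3 ± 8.34 counts per kb (SD, n = 3 each). In the siCtrl arm of experiment 3 the first 4 genes had the same order, at 1484, 690, 451 and 377 counts per kb. RELB, BIRC3 and TNFAIP3 came next there at 130, 125 and 120, followed by CXCL2 at 105 and CXCL1 at 51.2 counts per kb. CCL20 was last in both, at 0.406 and 1.08 counts per kb.

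Of the 10 members, the authors' deposited table for siY14 called 2 at an adjusted p under 0.05, ICAM1 higher and BIRC3 lower. That table called 1622 of 17706 genes with reads (9.16%), 3.81% higher and 5.35% lower. For siSOX9 the authors' deposited table called none of the 10, where 3.47% of 18747 genes were called. A second test, limma-voom on the recovered reads, which fits a linear model to every recovered gene at or above a mean of 10, called 0 of 8 members for siSOX9. It called 4 of 9 for siY14, namely ICAM1, NFKB1 and RELB higher and BIRC3 lower. Its background was 23.8% of 9900 genes for siSOX9 and 26.8% of 9055 genes for siY14. For siSOX9, an unadjusted p under 0.05 was reached by CXCL2 alone among the 10 members in the authors' deposited table (0.0223), and by CXCL2 (0.0183) and BIRC3 (0.0333) in limma-voom, where 3532 of all genes reached it. The labels do not say that samples came from separate cultures, so these p-values measure the spread between samples, which may be technical.

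**Figure D1:**
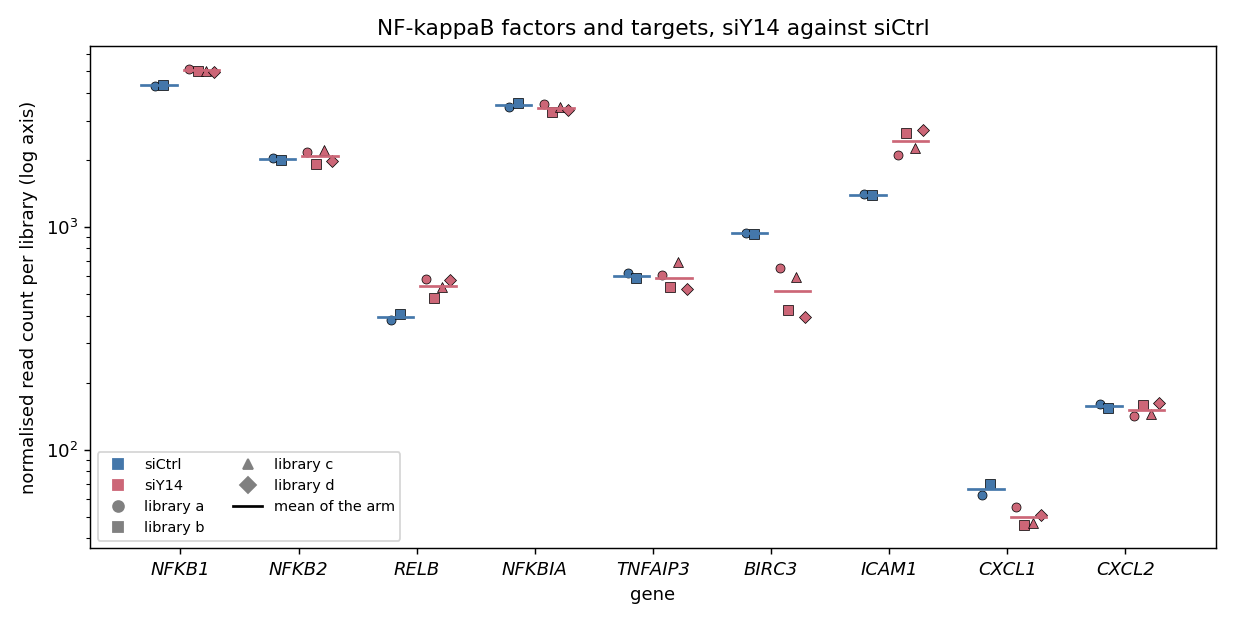
Normalised read counts (log axis) of the 9 members with a mean of at least 10, in each siCtrl library (blue, n = 2) and siY14 library (red, n = 4), with marker shapes for library letters and a line at each arm mean. ICAM1 lies at 2104 to 2712 with siY14 against 1392 and 1400 with siCtrl, and BIRC3 at 392.8 to 656.4 against 932.8 and 939.2.

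ICAM1 encodes an adhesion receptor that binds leukocyte integrins. Its normalised counts were 1400 and 1392 in siCtrl libraries a and b and 2104, 2629, 2261 and 2712 in siY14 libraries a to d. Every siY14 library lay above both siCtrl libraries, and b and d lay above a and c. Recovered spreads can be too small above a mean of 300, and an SD of 2 libraries is a weak estimate. With these limits, the mean rose from 1396 ± 5.85 (SD, n = 2) to 2427 ± 291 (SD, n = 4). In the authors' deposited table this was a 1.74-fold rise with an adjusted p of 9.6e-04, and limma-voom gave a log2 fold change of 0.78 ± 0.156 (SE) with an adjusted p of 0.0162. The log2 fold change was 0.65 in libraries a and c and 0.94 in b and d. With each pair summed to 1 library it was 0.78 with a limma-voom adjusted p of 0.165, and without siCtrl library a or b the adjusted p was 0.202 or 0.114, so the size held while the call was lost. A fit with 1 siCtrl library assumes that it varies like the siY14 libraries.

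With siSOX9, ICAM1 had 998.9, 1242 and 1279 normalised counts in siCtrl libraries a to c and 738.2, 1042, 975.5 and 1044 in siSOX9 libraries a to d. The arms overlapped, because siCtrl library a lay below 2 siSOX9 libraries, and library a was the lowest of both arms. Its log2 fold change was -0.30 with adjusted p = 0.635 in the authors' deposited table, and -0.33 ± 0.147 (SE) with 0.148 in limma-voom. Between the deepest libraries alone it was -0.44, and between the other libraries -0.30. Leaving out 1 of the deepest libraries moved the limma-voom value, to -0.065 without siSOX9 library a (adjusted p 0.715) and to -0.59 without siCtrl library a (adjusted p 0.0849). With the depth class (library a against the rest) as a term in limma-voom, ICAM1 had -0.37 with an adjusted p of 2.5e-06. That model called 51.0% of the 9900 genes and 5 of the 8 members, NFKB2, BIRC3, ICAM1, CXCL1 and CXCL2. Its depth class was chosen after seeing the data.

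BIRC3 encodes cIAP2, a ubiquitin ligase that joins receptor complexes and restrains cell death. In the siY14 table it had 939.2 and 932.8 normalised counts in the siCtrl libraries and 656.4, 422.8, 593.4 and 392.8 in siY14 libraries a to d. All 4 siY14 libraries were below both controls, with b and d lowest. With the same limits on spread as for ICAM1, the mean fell from 936 ± 4.52 (SD, n = 2) to 516 ± 129 (SD, n = 4). The ratio was 0.552 with adjusted p = 0.00251 in the authors' deposited table, and the log2 fold change was -0.88 ± 0.206 (SE) with an adjusted p of 0.0243 in limma-voom. It was -0.58 in libraries a and c and -1.20 in b and d, so the pairs differed in size but not in sign. As for ICAM1, the call was lost with summed pairs (limma-voom adjusted p 0.167) and without siCtrl library a (0.206) or b (0.131).

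With siSOX9, BIRC3 was at 487.6, 363.6 and 442.1 normalised counts in siCtrl libraries a to c and at 667.2, 466.9, 527.4 and 600.9 in siSOX9 libraries a to d. Only siSOX9 library b fell within the range of the controls. On the log2 scale the change was 0.39 with adjusted p = 0.542 in the authors' deposited table, and 0.40 ± 0.157 (SE) with 0.104 in limma-voom. It was 0.45 between the deepest libraries and 0.40 between the others. With the depth class as a term the limma-voom adjusted p was 2.9e-05, in the model that called 51.0% of genes. With 1 library left out, the limma-voom value ran from 0.23 (without siSOX9 library a, adjusted p 0.254) to 0.57 (without siCtrl library a, adjusted p 0.101). It was called in 1 of these 7 fits, without siSOX9 library b (0.49, adjusted p 0.0497).

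ICAM1 and BIRC3 thus had opposite signs in the knockdowns. Neither siSOX9 value was called in the authors' deposited table or in limma-voom with all libraries and no depth term. The difference was tested itself in a joint limma-voom model of all 13 libraries. Because the knockdowns were made in different experiments, it cannot be told apart from a difference in response between experiments. For ICAM1 the log2 fold change with siSOX9 minus that with siY14 was -1.12 ± 0.223 (SE), with an adjusted p of 0.00343 and a 95% interval from -1.60 to -0.64. For BIRC3 it was 1.29 ± 0.269 (SE), with an adjusted p of 0.00431 and an interval from 0.71 to 1.87. NFKB1 was the remaining member called, at -0.30 ± 0.0699 (SE) with an adjusted p of 0.00831, so that 3 of 8 members were called where the model called 22.9% of 8139 genes. NFKB1 was not called, however, with standard errors implied by the authors' p-values in place of that model. In the joint limma-voom model with siY14 pairs summed, the adjusted p was 0.0123 for both ICAM1 and BIRC3 and 0.0364 for NFKB1. Leaving out each library in turn kept the ICAM1 and BIRC3 differences under 0.05 in 13 of 13 fits, and NFKB1 in 11 of 13. The exceptions were siCtrl library a of the siSOX9 table, where NFKB1 had 0.0814, and siCtrl library a of the siY14 table, where it had 0.0695.

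**Figure D2:**
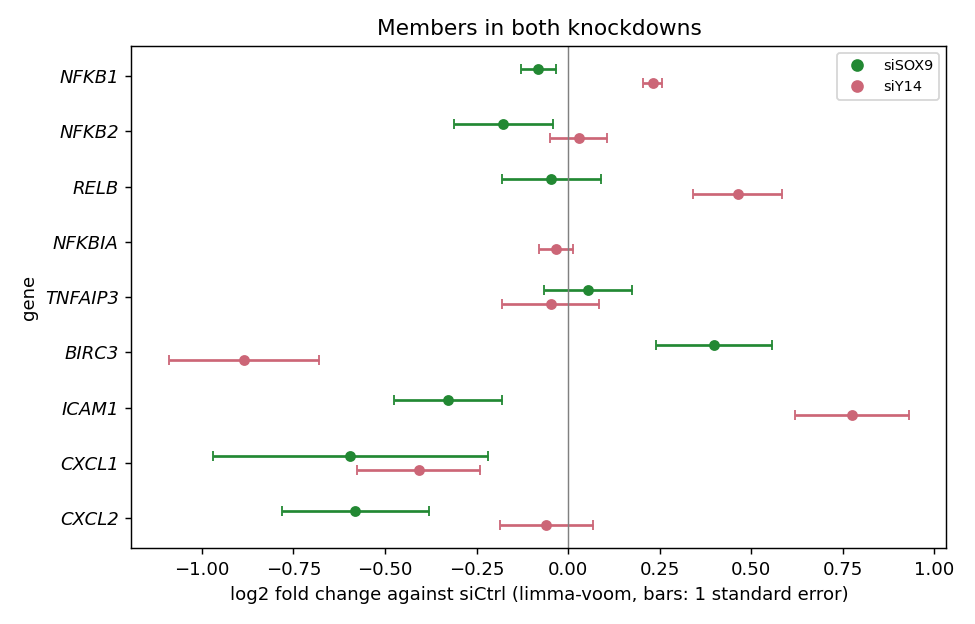
Log2 fold change against siCtrl for each member in limma-voom, with 1 standard error as bars, for siSOX9 (green) and siY14 (red); NFKBIA has no siSOX9 value because its siSOX9 reads were not recovered. ICAM1 lies at -0.33 with siSOX9 and 0.78 with siY14, and BIRC3 at 0.40 and -0.88, with bars that do not meet.

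NFKB1 encodes p105, the precursor of the p50 subunit of the classical dimers. It had 4312 and 4325 normalised counts in the siCtrl libraries of experiment 3 and 5134, 5036, 5031 and 4990 in siY14 libraries a to d. The arms did not overlap, and the difference was small next to that of ICAM1. The authors' deposited table gave 1.17-fold with an adjusted p of 0.497, while limma-voom gave a log2 fold change of 0.23 ± 0.0247 (SE) with an adjusted p of 0.00233. Recovered spreads of genes with such high means can be too small. The limma-voom adjusted p was 0.129 with summed pairs and 0.112 without siCtrl library a. With siSOX9 the counts were 3404, 3089 and 3012 in siCtrl libraries a to c and 3196, 2899, 3191 and 3096 in siSOX9 libraries a to d. These ranges overlapped, and the log2 fold change was -0.034 with adjusted p = 1.00 in the authors' deposited table.

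RELB is the subunit that pairs with p52 in the non-canonical branch. Its normalised counts were 381.8 and 406.5 with siCtrl and 584.3, 479.0, 536.5 and 578.2 with siY14, all 4 above both controls. RELB had a log2 fold change of 0.47 with adjusted p = 0.115 in the authors' deposited table and 0.46 ± 0.122 (SE) with 0.0341 in limma-voom. Both pairs had a similar value, 0.51 in libraries a and c and 0.42 in b and d. The limma-voom call was lost with summed pairs (0.183), without siCtrl library a (0.284) or b (0.153), and without siY14 library c (0.0569) or d (0.0720). With siSOX9 the counts were 290.6, 271.0 and 228.3 in siCtrl libraries and 243.6, 296.4, 303.3 and 236.2 in siSOX9 libraries, which overlapped. The difference between the knockdowns was -0.50 ± 0.192 (SE) for RELB, with a joint limma-voom adjusted p of 0.0745.

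NFKB2 encodes p100, the precursor of p52. In the siY14 table it had 2041 and 2006 normalised counts with siCtrl and 2174, 1925, 2225 and 1987 with siY14, where libraries a and c lay above the controls and b and d below. The log2 fold change was 0.038 with adjusted p = 1.00 in the authors' deposited table. In the siSOX9 table it had 1622, 2003 and 1860 with siCtrl and 1347, 1860, 2089 and 1948 with siSOX9, and library a was the lowest of each arm. The authors' deposited table gave -0.014 with an adjusted p of 1.00. For NFKB2 it was -0.27 between the deepest libraries and 0.025 between the others, which is a change of sign. Limma-voom with the depth class as a term called NFKB2 with siSOX9, while limma-voom without the deepest library of each arm did not.

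Neither inhibitor gene was called in either table. NFKBIA encodes IkappaB-alpha, which retains NF-kappaB in the cytoplasm, and had 3449 and 3592 normalised counts with siCtrl and 3553, 3287, 3471 and 3344 with siY14. The ranges overlapped, with a log2 fold change of -0.044 and adjusted p = 1.00 in the authors' deposited table. In the siSOX9 table its siCtrl libraries had 2118, 3105 and 2925, library a again lowest, and the arm means were 2716 with siCtrl and 3036 with siSOX9 (adjusted p 1.00 in the authors' deposited table). TNFAIP3 encodes A20, a ubiquitin-editing enzyme that ends signalling to IKK. It had 619.3 and 588.8 with siCtrl against 607.5, 536.1, 692.7 and 523.7 with siY14, and 270.6, 296.9 and 313.4 against 271.2, 295.2, 331.9 and 331.6 with siSOX9. Neither contrast separated the arms, and both had adjusted p = 1.00 in the authors' deposited table. The siY14 pairs lay on both sides of the TNFAIP3 control mean, at 0.11 in a and c and -0.19 in b and d on the log2 scale.

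**Figure D3:**
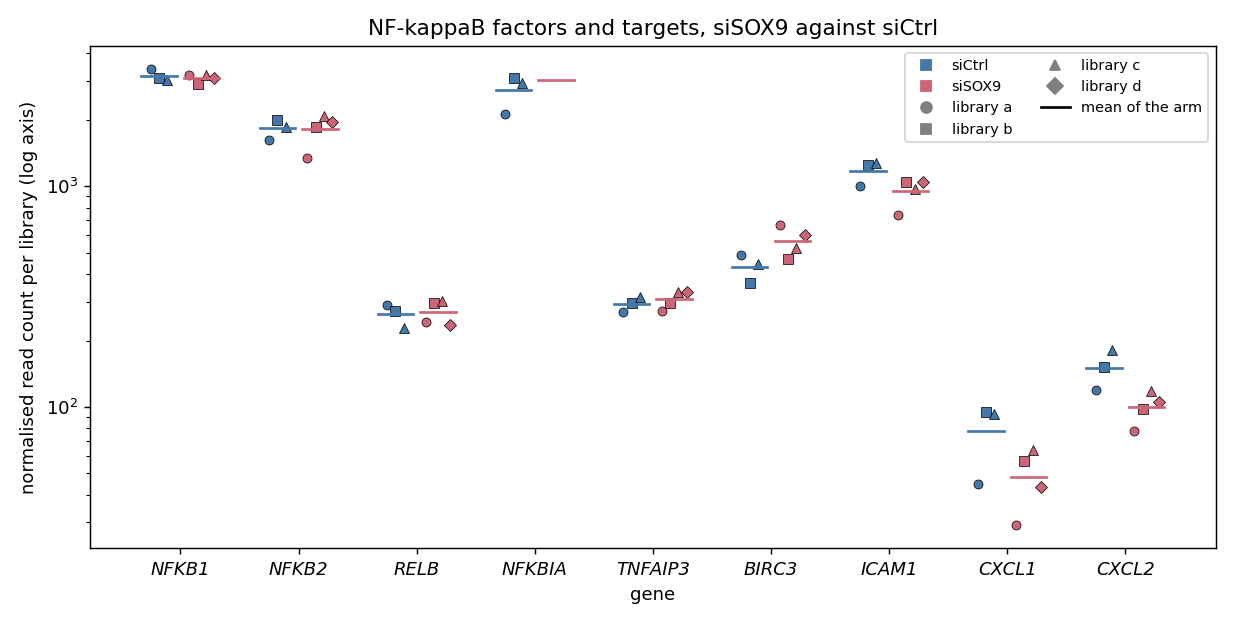
Normalised read counts (log axis) of the same 9 members in each siCtrl library (blue, n = 3) and siSOX9 library (red, n = 4), with marker shapes for library letters and a line at each arm mean; NFKBIA has no siSOX9 libraries because these reads were not recovered. Library a (circles) is the lowest of both arms for NFKB2, TNFAIP3, ICAM1, CXCL1 and CXCL2, and CXCL2 is the member whose arms do not overlap.

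CXCL1 and CXCL2 encode chemokines that attract neutrophils through CXCR2, and as close paralogs they may share reads, so their separate levels are uncertain. CXCL2 had 119.2, 152.5 and 180.6 normalised counts in siCtrl libraries a to c and 78.02, 97.58, 117.9 and 105.7 in siSOX9 libraries a to d. Every siSOX9 library lay below every control, although siSOX9 library c and siCtrl library a nearly met. CXCL2 had a log2 fold change of -0.60 with adjusted p = 0.303 in the authors' deposited table and -0.58 ± 0.200 (SE) with 0.0683 in limma-voom. It was -0.61 between the deepest libraries and -0.64 between the others. The limma-voom adjusted p was 1.4e-04 with the depth class as a term, in the model that called 51.0% of genes. With 1 library left out, CXCL2 was called in 1 of 7 fits, without siCtrl library a (-0.85, adjusted p 0.0431), and the value was smallest without siSOX9 library a (-0.34, adjusted p 0.247). CXCL2 was the 1 of 8 members whose libraries did not overlap in the siSOX9 table, where 30.1% of the 9900 genes were so separated.

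CXCL1 had 44.67, 95.33 and 93.41 normalised counts in siCtrl libraries a to c and 29.08, 56.82, 64.02 and 43.52 in siSOX9 libraries a to d. Library a was lowest in both arms, and siCtrl library a lay within the siSOX9 range. The log2 fold change was -0.69 with adjusted p = 1.00 in the authors' deposited table and -0.59 ± 0.376 (SE) with 0.301 in limma-voom. Between the deepest libraries it was -0.62 and between the others -0.78. With the depth class as a term the limma-voom adjusted p was 0.00162, again in the model that called 51.0% of genes. With 1 library left out, the limma-voom values of CXCL1 ran from -1.27 without siCtrl library a (adjusted p 0.0526) to -0.082 without siSOX9 library a (adjusted p 0.888), with 0 of 7 called. In the siY14 table CXCL1 had 62.73 and 70.09 with siCtrl and 55.23, 45.62, 46.85 and 50.98 with siY14, all below the controls, with adjusted p = 0.504 in the authors' deposited table. CXCL2 had 159.5 and 154.2 against 140.9, 158.9, 143.9 and 161.0 there, which overlapped. With siY14, 5 of 9 members did not overlap between the arms (BIRC3, CXCL1, ICAM1, NFKB1 and RELB), against 60.4% of the 9055 genes, so separation of the arms was not more frequent among the members than in the background.

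CCL20 encodes a chemokine for CCR6-bearing lymphocytes and dendritic cells, and it was barely detected. The siCtrl libraries of the siSOX9 table had 2, 1 and 0 reads and the siSOX9 libraries 3, 2, 0 and 0. In the siY14 table there were 1 and 2 reads with siCtrl and 4, 1, 1 and 1 with siY14. No fold change is given for it, since a difference was not detectable at this depth.

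Leaving out libraries or joining them moved the members' calls in both tables. Without the deepest library of each arm, limma-voom called 4 of 8 members, BIRC3 higher (0.40, adjusted p 0.0124) and ICAM1, CXCL1 and CXCL2 lower (-0.30, -0.77 and -0.62, with 0.00479, 0.0179 and 0.0122). In that fit 3071 of 9900 genes were called. NFKB1, RELB and TNFAIP3 were called neither there nor with the depth term. For siY14, summing the pairs left 0 of 9 members called by limma-voom and 15 of 9055 genes, while ICAM1, BIRC3, NFKB1 and RELB were among 2141 genes with an unadjusted p under 0.05.

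The wider pathway was read from 105 further genes, of which 82 were at or above a mean of 10 with siSOX9 and 81 with siY14. The lists by role described below hold these genes and also the 10 members. The authors' deposited tables called 1 higher and 4 lower with siSOX9, and 3 higher and 10 lower with siY14, where 3.47% and 9.16% of all genes were called. Of 63 tested in limma-voom with siSOX9, 5 were called higher and 16 lower, where 23.8% of 9900 genes were called. Of 58 with siY14, 7 were called higher and 11 lower, where 26.8% of 9055 genes were called. The median log2 fold changes of the further genes were -0.048 and 0.032, against 0.013 and -0.0013 over all genes with a mean of at least 10. Of the 5 subunit genes none was called in either of the authors' deposited tables. RELA, the p65 subunit and the highest of them in mean count (here and for the lists that follow not corrected for length), had 6054 and 6321 normalised counts (siCtrl and siSOX9) and 4633 and 6258 (siCtrl and siY14), with adjusted p = 1.00 and 0.101 in the authors' deposited tables. In limma-voom, 0 of 4 were called with siSOX9 and 2 of 4, NFKB1 and RELB, with siY14.

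Among 11 genes of IkappaB proteins and negative regulators, the authors' deposited tables called none with siSOX9, and 1 higher and 1 lower with siY14. A place in this list does not show that the product inhibits NF-kappaB in these cells. For siSOX9, limma-voom called NFKBIZ, the gene of the nuclear protein IkappaB-zeta, higher (0.59, adjusted p 0.00273) and TNIP2, an A20-binding protein, lower (-0.51, adjusted p 6.0e-04). NFKBIE, which encodes IkappaB-epsilon, rose by 0.64 on the log2 scale (adjusted p 0.0163) and CYLD, a deubiquitinase that restrains the pathway, fell by 0.81 (adjusted p 0.00380) in the authors' deposited table. TNIP1, an A20-binding protein and the highest in mean count of this list, had -0.13 and 0.093 with siSOX9 and siY14, with adjusted p = 1.00 and 0.881 in the authors' deposited tables. Of 22 kinase and adaptor genes, TRAF3, a brake on the non-canonical branch, fell with siSOX9 by 0.56 (adjusted p 0.0254 in the authors' deposited table). With siY14 the adaptor TRAF2 rose by 0.71 (0.00538), SHARPIN of the linear ubiquitin ligase rose by 0.60 (0.0181), and BIRC2, the gene of cIAP1, fell by 0.59 (0.0115), all in the authors' deposited table. BIRC2 thus fell in the same table as its paralog BIRC3. RBCK1 (siSOX9) and IRAK1 (siY14), the highest in mean count of the list, had adjusted p of 0.502 and 0.429 there in the authors' deposited tables.

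Of 13 receptors, IL1R1 fell by 0.70 (adjusted p 0.0180) and TNFRSF1B, which encodes tumour necrosis factor receptor 2, fell by 0.62 (adjusted p 0.0477) with siY14 in the authors' deposited table. The authors' deposited table called none with siSOX9, where LTBR was highest in mean count, at -0.26, while limma-voom called IL1RAP higher and TLR3, TNFRSF12A and TNFRSF21 lower. TNFRSF21, the highest in mean count in the siY14 table, had -0.62 there with adjusted p = 0.279 in the authors' deposited table. In limma-voom the siY14 value of TNFRSF1B had an adjusted p of 0.0628. Of 10 ligands, IL1B, an activator of the pathway, rose with siSOX9. It had 4.641, 5.447 and 4.152 normalised counts in siCtrl libraries a to c, from 16, 4 and 2 reads, and 53.13, 53.11, 43.81 and 37.30 in siSOX9 libraries a to d. The arms lay far apart, with a limma-voom log2 fold change of 3.27 ± 0.288 (SE) and an adjusted p of 1.2e-04. In the siY14 table IL1B had 0 to 5 reads in any library. IL18, the ligand highest in mean count, had -0.054 and -0.22 with siSOX9 and siY14, with adjusted p = 1.00 and 0.491 in the authors' deposited tables.

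Of 14 chemokine genes, 13 had reads with siSOX9 and 11 with siY14. The authors' deposited tables called 1 and 3 of these, all lower, where 3.47% and 9.16% of all genes with reads were called. With siSOX9, 9 of the 10 with a mean of at least 10 had a negative log2 fold change, with a median of -0.55, and with siY14 8 of 9 did, with a median of -0.38. Over all genes at or above that mean, 6540 of 13649 were negative with siSOX9 and 6738 of 13444 with siY14. The chemokine counts and medians include the members CXCL1 and CXCL2. CCL2, a monocyte chemokine, was the exception with siSOX9, at 0.96 with adjusted p = 0.585 in the authors' deposited table. One passed with siSOX9 in the authors' deposited table, the neutrophil chemokine CXCL5, the highest in mean count of the list, which fell from 17271 to 9183 normalised counts (log2 fold change -0.91, adjusted p 2.2e-05). With siY14 it had -0.38 with adjusted p = 0.810 in the authors' deposited table. There CXCL3 fell by 0.62 (adjusted p 0.0462), IL8, which encodes CXCL8, by 0.62 (0.0103) and CXCL16, a transmembrane chemokine, by 0.59 (0.0140). CXCL3 is a close paralog of CXCL1 and CXCL2 and may share reads with them. The siY14 value of CXCL3 was not called in limma-voom (adjusted p 0.0541). CXCL16 and CXCL3 were called there with siSOX9, with adjusted p = 0.0130 and 0.0109 and log2 fold changes of -0.67 and -0.85.

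Beyond BIRC3, the survival gene IER3, an early response gene, fell with siY14 by 0.65 (adjusted p 0.0111), and BCL2L1, the highest in mean count of this list, had -0.10 and 0.11 with siSOX9 and siY14 in the authors' deposited tables. Of the adhesion genes, ICAM1 was the 1 called with siY14 in the authors' deposited table. Limma-voom also called CD58 higher with siY14 (0.25, adjusted p 0.0496), and called it lower with siSOX9 (-0.32, adjusted p 0.0152). CD44, a hyaluronan receptor and the highest in mean count, had 0.12 and -0.36 with adjusted p = 1.00 and 0.168 in the authors' deposited tables. The cytokine gene LIF fell in both authors' deposited tables, by 0.59 with siSOX9 (adjusted p 0.0114) and by 0.81 with siY14 (5.3e-04). PLAU, the urokinase gene, fell by 1.08 with siSOX9 (0.00166) and TNFAIP8 by 0.59 with siY14 (0.0176) in the authors' deposited tables. KLF6 (siSOX9) and SDC4 (siY14), the highest in mean count of the remaining targets, had -0.0036 and -0.46 there, with adjusted p = 1.00 and 0.0577 in the authors' deposited tables.

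**Figure D4:**
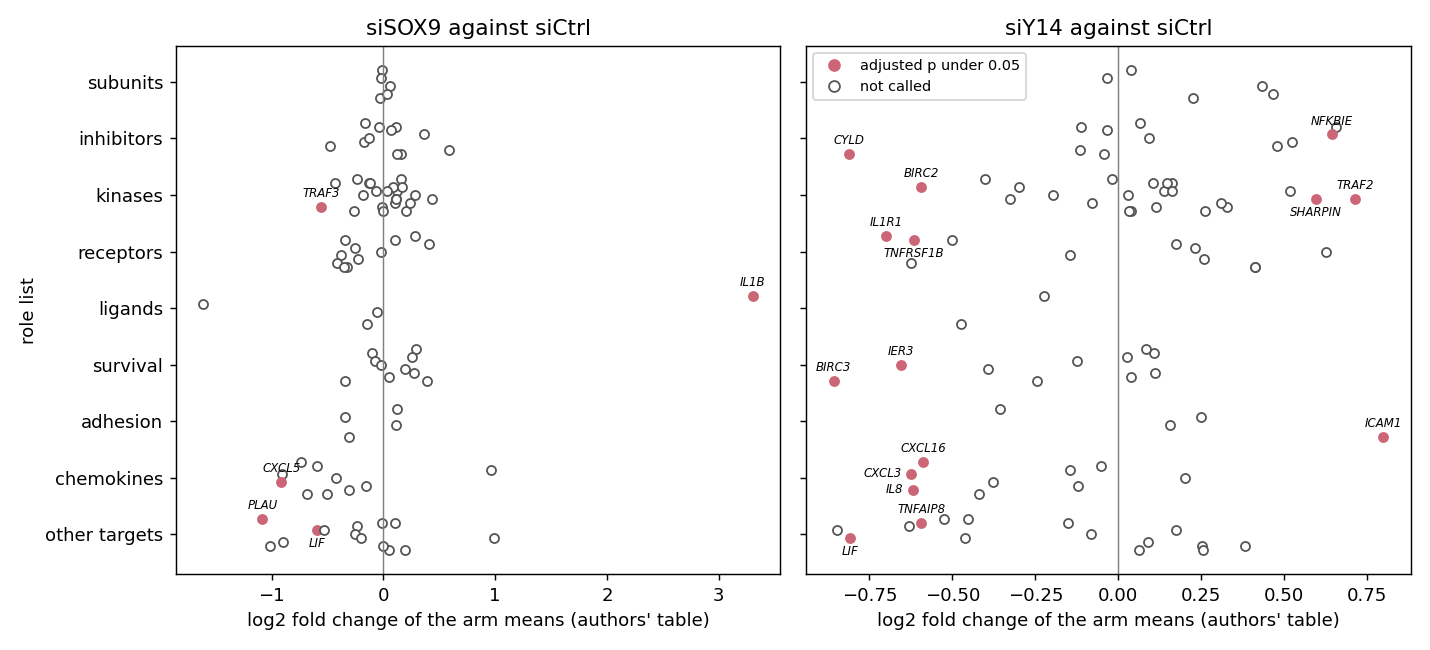
Log2 fold change of the arm means in the authors' deposited tables for NF-kappaB pathway genes with a mean of at least 10, grouped by role, with siSOX9 on the left and siY14 on the right (axes differ); each point is 1 gene, and filled, named points have an adjusted p under 0.05. Left of 0 lie 9 of 10 chemokines with siSOX9 and 8 of 9 with siY14, and ICAM1 at 0.80 and BIRC3 at -0.86 are the members called with siY14.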

How the data were processed

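RNA-seq of 13 DLD-1 samples was used. Per the submitters' processing notes, DESeq, HTSeq, TopHat2, HISAT2, Bowtie and SAMtools were run with build hg19; their order, versions and use of strand are not given in the sources used here. Per the file headers, each deposited table holds arm means, a signal made by the authors as reads over size factors, with their ratio (fold change), the log2 of that ratio and p-values before and after adjustment. That adjustment by the authors equals Benjamini-Hochberg over every gene with reads, and the threshold was 0.05. There were 0 other columns of per-sample values.

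Arm means carry 15 significant digits, so whole reads per library could be recovered where 1 set of reads had a posterior of at least 0.999. This gave 14998 genes (80.0%) for siSOX9 and 13317 (75.2%) for siY14, and the step was tested on simulated data. Widely spread sets were refused above a mean of 300, so standard deviations of high-mean genes can be too small. Genes at or above a mean of 10 were fitted on recovered reads with limma 3.58.1 (voom, R 4.3.3), with library sizes from the authors' size factors. The limma step was also tested on simulated data. Of 108 genes changed 2-fold it found 98 with the siSOX9 design, with 8 false calls, and 92 with the siY14 design, with 5. Simulated libraries varied independently, without siY14 pairs or a shift of the deepest siSOX9 libraries, so the test does not cover these features.

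The 10 members, the role lists and the tests were chosen with earlier results of these data known. Named are all members, other list genes called by the authors, and the gene of each role list with the highest mean count. A few further list genes are named too, some of them called by limma-voom only. The other limma-voom calls are given as counts. RNA levels in bulk samples do not separate fewer cells from less RNA per cell. Alternatives were other thresholds, filters, pseudocounts, centring, left-out libraries, depth class and summed pairs, the last 2 chosen after seeing the data.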

Additional observations from a re-analysis of the deposited data

Results flagged for a closer look

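The difference between the knockdowns, siSOX9 minus siY14 on the log2 scale, passed the joint limma-voom test for 3 members: NFKB1 at -0.299, BIRC3 at 1.29 and ICAM1 at -1.12. The tested difference is what brings them here, and 22.9% of all genes in that model passed as well. CCL20 had 1 library far from the rest of its arm, siY14 library a at 3.202 normalised counts, which rests on 4 reads against 1 in each other siY14 library. Such a gap was looked for in 19 groups of 4 libraries, and chance gives about 1 in 20.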

How the results depend on the processing

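No paired analysis was possible because the deposited columns carry no replicate or experiment numbers. The siSOX9 fits therefore hold no term for experiment, although their samples come from experiments 1 and 2. The siSOX9 count of called genes, 650 in the authors' deposited table, was 2354 in limma-voom (1189 to 2655 with 1 library left out), 5050 with the depth class and 3071 without the deepest libraries; for the members it was 0, with 0 to 1, 5 and 4. For siY14 it was 1622, with 74 to 3084 leaving out 1 library and 15 with summed pairs; for the members it was 2, with 4 in limma-voom, 0 to 4 and 0. The genes whose knockdowns differed numbered 1865, with 630 to 2057 leaving out 1 library, 983 from standard errors implied by the authors' p-values and 1221 with summed pairs. With implied errors the NFKB1 difference had an adjusted p of 0.494. The cause of these shifts was not tested.

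Signs turned for small uncalled log2 differences. With 1 library left out, siSOX9 values ran from -0.125 to 0.0367 (NFKB1), -0.395 to 0.221 (NFKB2), -0.103 to 0.0632 (RELB) and -0.0388 to 0.155 (TNFAIP3), siY14 values from -0.00518 to 0.0765 (NFKB2), and differences from -0.386 to 0.173 (NFKB2) and -0.828 to 0.275 (CXCL1). RELB with siSOX9 was -0.0456 in limma-voom and -0.103 with the depth class, and NFKB2 was 0.0122 without the deepest libraries. Depth limits CCL20, at 0 to 4 reads per library.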
